A study of Cunninghamia lanceolata with 18 samples.

Results

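Homologs of TSC10 were followed across 3 tissues of 2 clones of Chinese fir (Cunninghamia lanceolata), a conifer grown for timber. There were 5 of them among the 46723 genes of the count table. Cl24641 (Cula0024641 in the files), Cl21888 (Cula0021888), Cl27148 (Cula0027148) and Cl29930 (Cula0029930) were named TSC10A by the study, and NG_11118 (NewGene_11118) was named TSC10B. They belonged to a co-expression module that the study built on these same libraries and called pink, so their pattern over tissues and libraries was part of how they were chosen, and it is described here without a test. Cl27148 in the phloem and Cl29930 in the lateral bud were also named for their clone difference there, and those differences carry no test either.

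TSC10 is the 3-ketodihydrosphingosine reductase of the endoplasmic reticulum. It uses NADPH for the step after serine palmitoyltransferase in the synthesis of long-chain bases, the backbone of every sphingolipid, and ceramide synthases then join that backbone to a fatty acid, often a very long-chain one. The gene takes its name from budding yeast. Arabidopsis has a TSC10A and a TSC10B, and Arabidopsis tsc10a mutants are known for an altered leaf ion content and more root suberin. Sequences and lengths of these conifer homologs were not used here, so levels are compared between libraries and not between genes.

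The groups were the upper phloem (UP) next to the apical bud, the lateral bud (LB) and the apical bud (AB), each from clone C1, with the longer internodes, and from clone C11, with the shorter ones. Each clone and tissue had 3 libraries, 18 in all. The material was untreated and came from clonal trees of a field test, collected when lateral buds appeared. Each clone is a single genotype, and the clones were collected on different days, so that day and clone cannot be told apart. The libraries held 24766529 to 32005160 counts. Levels are given as CPM, the count of a gene scaled to a common library size (TMM), and no library was a copy of another of its clone and tissue. No marker of phloem or of the meristem is paired with an identifier in the sources used here, so the tissue labels were not checked against such markers.

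All 5 homologs had lower means in the phloem than in either bud in both clones, but they differed in how far the phloem lay below the buds. Cl24641 was almost absent from UP tissues. It had 5, 5 and 0 counts in the C1 UP libraries and 0, 11 and 0 counts in the C11 UP libraries, and a count of 0 allows up to 3 counts, or 0.102 to 0.115 CPM in those libraries. In LB tissues the same gene stood at 7.86, 9.92 and 13.8 CPM in C1 and at 10.5, 19.7 and 10.6 CPM in C11. In AB tissues it stood at 16.4, 6.45 and 3.96 CPM in C1 and at 12.8, 5.24 and 22.8 CPM in C11. No UP library of either clone came near any bud library. The mean of UP was 0.971% of that of LB in C1 and 0.935% in C11.

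Cl21888 kept a trace in the phloem. Its UP values were 0.439, 0.210 and 0.374 CPM in C1 and 0, 1.35 and 0.294 CPM in C11, from 39 counts at most. In LB tissues it had 13.8, 20.7 and 26.6 CPM in C1, against 11.9, 29.1 and 18.7 CPM in C11. In AB tissues it had 33.0, 10.6 and 7.91 CPM in C1, against 13.3, 9.41 and 36.6 CPM in C11. The bud libraries of the clones overlapped widely, while UP and bud libraries did not overlap, and the C1 means were 59.8 times higher in LB and 50.4 times higher in AB than in UP. In C11 these ratios were 36.3 and 36.0, and they rested on few UP counts.

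Cl27148 stayed readable in the phloem of both clones. In UP tissues it had 4.51, 3.45 and 1.84 CPM in C1, against 3.96, 8.36 and 13.9 CPM in C11. In LB tissues the values were 17.1, 22.5 and 29.7 CPM in C1 and 24.5, 49.0 and 29.5 CPM in C11. In AB tissues they were 38.1, 12.9 and 12.3 CPM in C1 and 36.8, 12.5 and 59.2 CPM in C11. The third C11 UP library lay above the second C11 AB library, the only place where UP and buds of a clone overlapped for any homolog. The UP mean was 14.1% of the LB mean in C1 and 25.4% in C11, where it was the highest such percentage of the homologs (in C1 that of Cl29930 was 14.5%).

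Cl29930 was likewise read in every UP library. Its UP values were 9.31, 5.07 and 5.98 CPM in C1 and 7.30, 23.9 and 4.59 CPM in C11. In LB tissues it had 41.2, 38.6 and 60.1 CPM in C1, against 85.1, 88.6 and 118.7 CPM in C11, and here the clones did not overlap. In AB tissues it had 80.4, 23.2 and 27.8 CPM in C1, against 76.0, 24.0 and 212.2 CPM in C11. The C11 AB libraries spanned 8.85-fold, the widest range of any homolog in a bud group. The second C11 UP library at 23.86 CPM and the second C11 AB library at 23.98 CPM nearly met.

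NG_11118, the TSC10B homolog, was much lower in phloem than in the buds, with at least 64 counts in every library. In UP tissues it had 9.62, 3.75 and 4.86 CPM in C1, against 3.46, 28.1 and 2.35 CPM in C11. In LB tissues the values were 143.5, 180.4 and 230.0 CPM in C1 and 119.5, 308.1 and 138.1 CPM in C11. In AB tissues they were 307.6, 87.6 and 55.8 CPM in C1 and 163.3, 77.4 and 298.7 CPM in C11. The C11 UP libraries spanned 11.9-fold, with the second library far above the others. The LB mean was 30.4 times the UP mean in C1 and 16.7 times in C11.

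**Figure D1:**
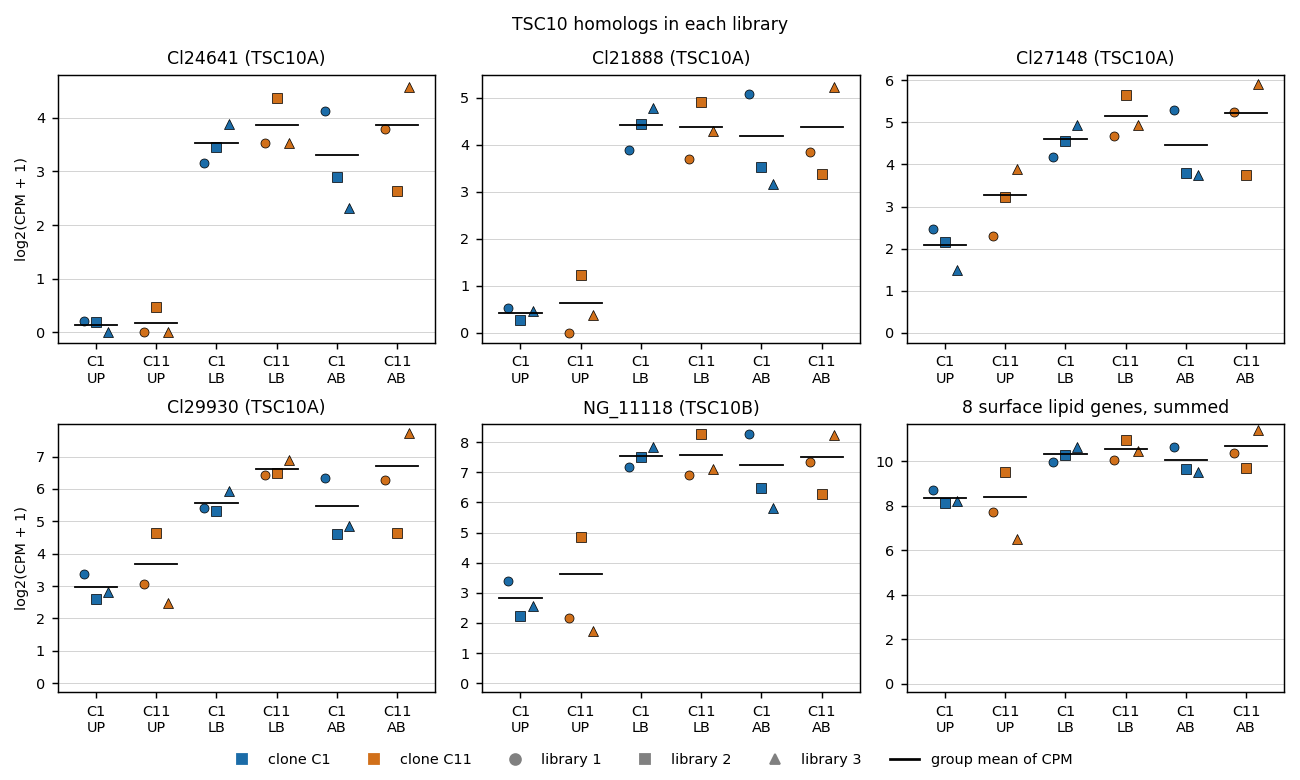
Level of each TSC10 homolog, and of 8 surface lipid genes summed, as log2(CPM + 1) in the 18 libraries; points are libraries, colours are clones and the black line is the group's mean CPM on the same scale. UP libraries sit below the bud libraries of the same clone except for Cl27148 in C11, while LB and AB overlap in each panel.

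Fitted together over the 18 libraries with edgeR, Cl24641, Cl21888 and NG_11118 lay further below their bud levels in UP tissues than Cl27148 and Cl29930, a grouping made after the values were seen. The log2 fold change of UP over AB was -6.37 in C1 (SE 1.21) and -6.66 in C11 (SE 1.22) for Cl24641. It was -5.64 (SE 1.08) and -5.15 (SE 1.05) for Cl21888, and -4.63 (SE 0.98) and -3.99 (SE 0.95) for NG_11118. Cl27148 gave -2.69 in C1 (SE 0.64) and -2.05 in C11 (SE 0.62), and Cl29930 gave -2.69 (SE 0.75) and -3.13 (SE 0.76). UP over LB gave nearly the same sizes. LB over AB ran from -0.09 to 0.30 over the homologs and clones, with standard errors of 0.59 to 0.92. Single libraries moved these values. Without the first C1 AB library, LB over AB in C1 was 0.87 to 1.36 over the homologs, and UP over AB in C1 was -5.59 for Cl24641, -4.75 for Cl21888, -3.56 for NG_11118, -1.95 for Cl27148 and -1.91 for Cl29930. Without the third C11 AB library, LB over AB in C11 reached 0.96 and UP over AB shrank to -2.07 for Cl29930, while for Cl21888 they were 0.81 and -4.35 and for Cl24641 0.59 and -6.07. Without the second C11 UP library, UP over AB in C11 was -7.00 for Cl21888, -5.93 for NG_11118 and -4.11 for Cl29930, and both remaining C11 UP libraries had no count of Cl24641. In order of group means, C1 UP was lowest and C11 UP next for all 5 homologs, and every neighbouring pair among the 4 bud groups overlapped except C1 LB and C11 LB for Cl29930. Every UP library lay below every bud library of its clone for 5 of 5 homologs in C1 and 4 of 5 in C11, where the same held for 7.97% and 3.26% of all genes, and nothing is read from this since the module selected for it.

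The clones were compared within each tissue. Of the 15 pairs of homolog and tissue, 12 were tested, and edgeR's quasi-likelihood test called 0 of them, where a call needed a 2-fold change and an adjusted p under 0.05. Of the same 12, 0 had an unadjusted p under 0.05. DESeq2 called 0 of 13, including Cl24641 in UP. A count of 0 in so few tests says little beside the shares over all genes. Over all genes tested edgeR called 3.94% in UP, 4.27% in LB and 4.55% in AB, the unadjusted p was under 0.05 for 19.8%, 20.8% and 17.9%, and DESeq2 called 12.6%, 12.9% and 10.9%. The fitted mean was lower in C1 for 11 of the 12 pairs, against 53.9%, 50.8% and 51.4% of all genes in UP, LB and AB. These 12 values are not independent, because the homologs were high and low in the same libraries, as described further on.

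In UP tissues the log2 fold change of C1 over C11 was -0.91 for NG_11118 (SE 1.00, edgeR adjusted p = 0.656), -0.83 for Cl29930 (SE 0.66, edgeR adjusted p = 0.528) and -0.70 for Cl21888 (SE 1.29, edgeR adjusted p = 0.805). All 3 turned positive once the second C11 library was left out, at 1.02, 0.15 and 1.16, so the direction in UP rested on that library. In the same library the 8 surface lipid genes summed to 718 CPM, against 208 and 88.5 CPM in the other C11 UP libraries, and the part of this in the result was not tested. Cl24641 was below the filter in UP. Its 10 summed counts in C1 and 11 in C11 gave a ratio of 0.788, with an exact 95% interval of 0.300 to 2.04 that covers counting error only.

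Cl27148 in UP tissues, given as a description, averaged 3.27 ± 1.35 CPM in C1 and 8.74 ± 4.98 CPM in C11 (SD, n = 3 each). The fitted log2 fold change was -1.44 (SE 0.57). The clones overlapped, because the first C11 library at 3.96 CPM lay between the C1 libraries. Without the third C11 library, which had the highest value, the log2 fold change was -0.93.

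In LB tissues NG_11118 averaged 184.6 ± 43.4 CPM in C1 and 188.6 ± 104.0 CPM in C11 (SD, n = 3 each), a log2 fold change of -0.03 with a 95% interval of -1.03 to 0.96 (edgeR adjusted p = 0.973). Cl21888 gave 0.03 with an interval of -0.94 to 1.00 (edgeR adjusted p = 0.973). Both values changed sign when single libraries were left out. Cl27148 gave -0.57 (SE 0.34, edgeR adjusted p = 0.379) and Cl24641 gave -0.37 (SE 0.37, edgeR adjusted p = 0.594), both with overlapping clones.

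Cl29930 in LB tissues, again a description, averaged 46.7 ± 11.8 CPM in C1 and 97.5 ± 18.4 CPM in C11 (SD, n = 3 each). The fitted log2 fold change was -1.06 (SE 0.25). It was the only pair of homolog and tissue without overlap between the clones. Over all genes the libraries of the clones did not overlap for 30.5% in UP, 28.3% in LB and 25.2% in AB, and C1 was the lower clone in LB for 13.8%, from which nothing is read, since the gene was named for the difference. Leaving out any 1 LB library moved the value between -1.28 and -0.91. LB libraries of the clones with the same number deviated together, and with the number as a block the value was -1.08, while the count of called genes in LB was 528 with the block, against 1040 without it.

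In AB tissues the libraries scattered more than in LB tissues. Cl29930 averaged 43.8 ± 31.8 CPM in C1 and 104.1 ± 97.2 CPM in C11 (SD, n = 3 each), a log2 fold change of -1.25 with a 95% interval of -3.26 to 0.76 (edgeR adjusted p = 0.503). Without the third C11 library, which alone reached 212.2 CPM, the value was -0.17, and without the first C1 library it was -2.02. Cl27148 gave -0.77 (SE 0.67), Cl24641 -0.60 (SE 0.70), NG_11118 -0.26 (SE 0.75) and Cl21888 -0.20 (SE 0.72), with edgeR adjusted p from 0.610 to 0.917. Without the third C11 library Cl24641, NG_11118 and Cl21888 turned positive, at 0.014, 0.34 and 0.62. Without the second C1 library NG_11118 and Cl21888 gave 0.040 and 0.076, and without the third C1 library 0.17 and 0.18. Without the first C1 library Cl27148 gave -1.51, Cl24641 -1.37, NG_11118 -1.31 and Cl21888 -1.09. Cl27148 gave -0.20 without the third C11 library. The surface lipid genes summed to 2717 CPM in the third C11 AB library, against 1335 and 835 CPM in the other C11 AB libraries, and the part of this in the result was not tested.

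**Figure D2:**
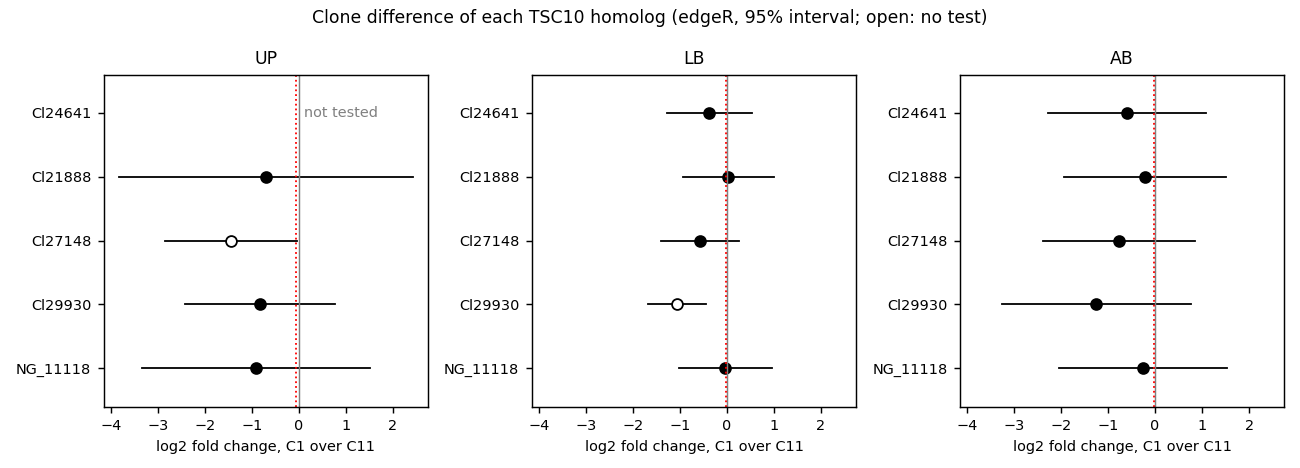
Log2 fold change of C1 over C11 for each TSC10 homolog in UP, LB and AB tissues, with the 95% interval of the edgeR fit; open points were named by the study for this difference and carry no test, and the dotted line is the median of all genes tested. All 12 filled points have intervals that include 0.

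Whether the clone difference of a homolog differed between tissues was tested in the 18-library fit, leaving out pairs that involve a named difference. Between UP and LB the difference of log2 fold changes reached -0.86 for NG_11118 (SE 1.20), and between UP and AB it reached -0.64 for the same gene (SE 1.20). Between LB and AB the values were 0.20 to 0.24 over 4 homologs. Of the 11 tests, 0 passed with edgeR (adjusted p of 1.00 throughout), 0 passed with DESeq2 and 0 had an unadjusted p under 0.05. Over all genes edgeR called 0.00736% for UP against AB, 0.011% for UP against LB and 0% for LB against AB, and the unadjusted p was under 0.05 for 3.33%, 3.14% and 1.55%. Same-numbered C11 libraries of different tissues deviated together, and with clone and replicate number as a block edgeR called 0 genes in each of these comparisons, the homologs included.

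Within a group the homologs were high and low in the same libraries. In the C1 AB libraries the first was the highest for 5 of 5 homologs, and in the C11 AB libraries the third was the highest and the second the lowest for 5 of 5. The third C1 LB library and the first C1 UP library were also the highest for 5 of 5. The second C11 LB and the second C11 UP library were the highest for 4 of 5. Measured as deviations of log2(CPM + 1) from the 6 group means, the 10 pairs of homologs had a median Pearson correlation of 0.81 over the 18 libraries (0.60 to 0.92), as a description of points that share libraries and depth. Over the 12 bud libraries alone the median was 0.94 (0.80 to 0.98).

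The surface lipid genes were high and low in the same libraries too. The list holds 8 genes the study named among the best connected of the module, for cutin, wax and lipid export, including DCR (an acyltransferase of cutin synthesis in Arabidopsis), both WSD1 homologs (wax ester synthases) and the transporters ABCG11 and ABCG39. The deviations of their summed CPM, in which genes with higher CPM weigh more, correlated with those of the homologs at 0.88 to 0.98 over the 12 bud libraries. The summed level ran from 277 to 410 CPM in C1 UP and from 88.5 to 718 CPM in C11 UP. It ran from 980 to 1568 CPM in C1 LB and from 1048 to 1989 CPM in C11 LB, and from 730 to 1602 CPM in C1 AB and from 835 to 2717 CPM in C11 AB. In bulk tissue, fewer cells of a type and less RNA per cell cannot be told apart, and the part of this shared movement in any clone value was not tested.

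Cl27148 departed from the other homologs in the phloem. In the third C11 UP library it had its highest UP value, 13.9 CPM, while Cl29930 and NG_11118 had their lowest UP values. Cl24641 had no count there, as in the third C1 and the first C11 UP library. Cl21888, at 0.294 CPM, was not at its lowest. The third C11 UP library also had the lowest surface lipid sum of all 18, 88.5 CPM, of which DCR gave 35.2 and ABCG39 34.7 CPM. In it 4 of the 8 genes had no count, namely both WSD1 and both CYP86B1 homologs. Each of these had at most 5.58 CPM in any UP library, so the sum in UP mostly follows other genes of the list. Over the 6 UP libraries the deviations of Cl27148 correlated with the surface lipid sum at -0.20, against 0.76 to 0.98 for the other 4 homologs. Of these, Cl24641 (0.85) and Cl21888 (0.76) had at most 11 and 39 counts in a UP library, so their correlations rest on few counts. With 6 libraries these are descriptions only.

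**Figure D3:**
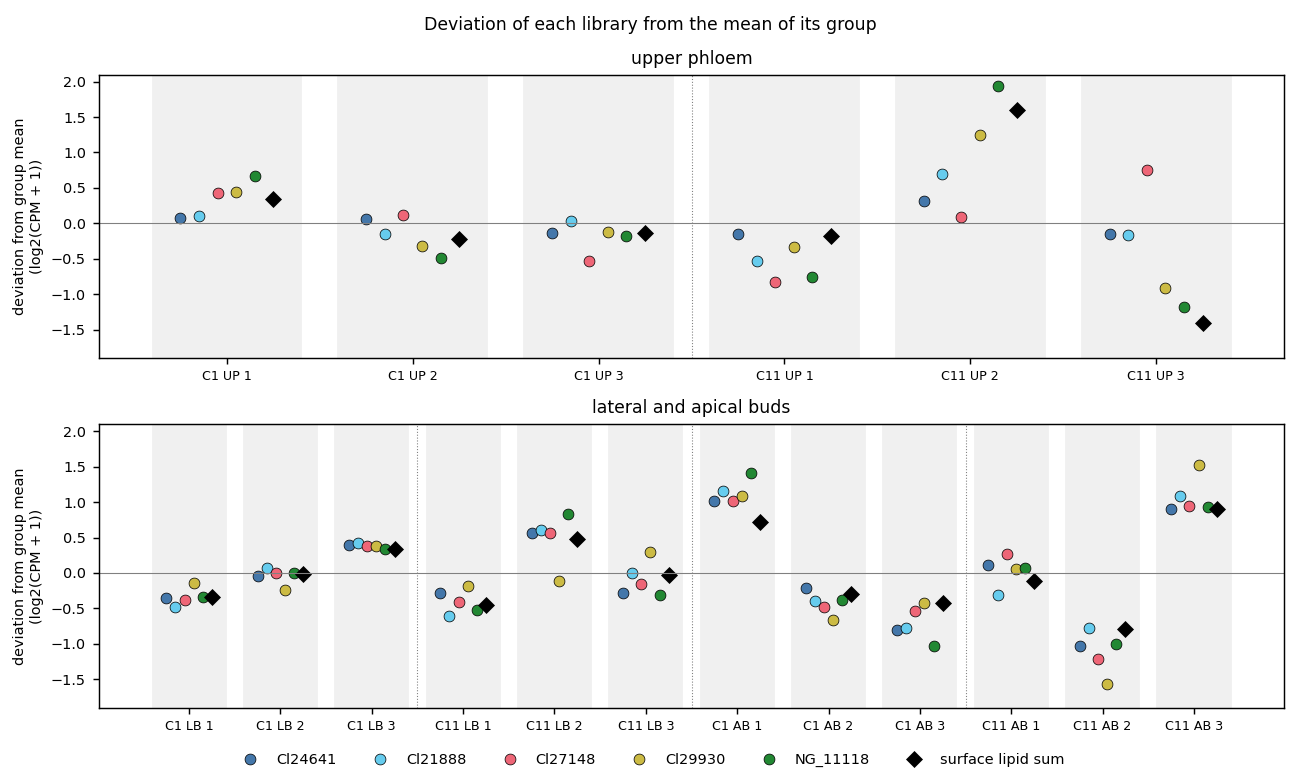
Deviation of each library from its group mean in log2(CPM + 1), for the 5 TSC10 homologs and the sum of 8 surface lipid genes, in UP tissues (upper panel) and in LB and AB tissues (lower panel). The points of a library mostly rise and fall together in the buds. Cl29930 stands apart in the second C11 LB library, at -0.12 against 0.48 to 0.84 for the rest. In the third C11 LB library it is at 0.30, where the rest lie below 0. Cl27148 stands apart from the rest in the third C11 UP library.

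The share of each homolog in their summed counts leaves out movement common to all of them. A homolog's own length does not affect the direction in which its share differs between libraries, but it does affect the size of that difference. The lengths of the others stay in the sum as weights, so the differences depend on them too. This measure was chosen after the values were seen and is a description. The summed counts were 384 to 1789 in UP and 2752 to 17647 in the buds, so Wilson 95% intervals of a share were at most 4.98 percentage points to either side in UP and 1.87 in the buds, for counting error only. Cl24641 made up 0% to 1.19% of the sum in UP and 3.35% to 4.59% in the buds. The 0% stood for 3 libraries, whose Wilson upper limits were at most 0.993%. NG_11118 made up 11.1% to 45.3% in UP and 43.8% to 66.3% in the buds. Cl27148 made up 13.5% to 65.7% in UP, all above its 7.66% to 12.2% in the buds, with 65.7% (95% interval 61.8% to 69.5%) in the third C11 UP library and no more than 27.3% in the others.

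In each bud group the shares of NG_11118 and Cl24641 varied less, relative to their mean, than their levels. For NG_11118, itself 43.8% to 66.3% of the sum in the buds, this holds in part by construction. While the level of NG_11118 spanned 5.51-fold in C1 AB, its share there was 64.7%, 62.2% and 51.8%. The share of Cl24641 stayed between 3.35% and 4.59% in all 12 bud libraries, whose levels of that gene ran from 3.96 to 22.8 CPM. Cl29930 had a higher median share in C11, which in part restates its named difference in LB, so nothing is read from it. Its share in the C1 buds was 14.2% to 25.8% with a median of 16.8%, and in the C11 buds it was 17.9% to 37.6% with a median of 29.4%. In C11 LB its share varied more than its level, which spanned 1.39-fold. The C11 libraries were uneven, with 33.8%, 17.9% and 37.6% in LB and 25.1%, 18.7% and 33.7% in AB. In both buds the library numbered 2 lay near the C1 median and the others at 25.1% or more. Same-numbered C11 libraries deviated together across tissues, so the buds are not independent here. In the second C11 LB library the level of Cl29930 was 88.6 CPM, between the others, and NG_11118 was at its highest, 308.1 CPM. In the second C11 AB library the level of Cl29930 was itself the lowest of its group, 24.0 CPM. Within LB alone the clones overlapped by the share of the second C11 library, which at 17.9% lay below the highest C1 value of 18.4%.

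The other homologs' shares are given with overlap as a description. NG_11118 made up 63.8% to 66.3% of the sum in C1 LB, against 43.8% to 62.3% in C11 LB, without overlap, and 51.8% to 64.7% in C1 AB, against 47.4% to 60.2% in C11 AB, with overlap. Cl21888 made up 6.16%, 7.61% and 7.40% of the sum in the C1 LB libraries, against 4.74%, 5.89% and 5.93% in the C11 LB libraries, without overlap. In AB it made up 6.95% to 7.53% in C1, against 4.41% to 7.32% in C11, with overlap. Cl27148 made up 7.66% to 8.28% in C1 LB, against 9.36% to 9.90% in C11 LB, without overlap. In AB it made up 8.01% to 11.4% in C1, against 9.40% to 12.2% in C11, with overlap. Cl24641 made up 3.52% to 3.83% in C1 LB, against 3.35% to 4.18% in C11 LB, with overlap. Its share was 3.45% to 4.59% in C1 AB, against 3.63% to 4.23% in C11 AB, also with overlap. The levels of 28.3% of all genes did not overlap between the clones in LB, and no such rate was computed for shares. Shares of 1 sum depend on each other, so a larger share of Cl29930 lowers the rest by construction, and so does a larger share of NG_11118.

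**Figure D4:**
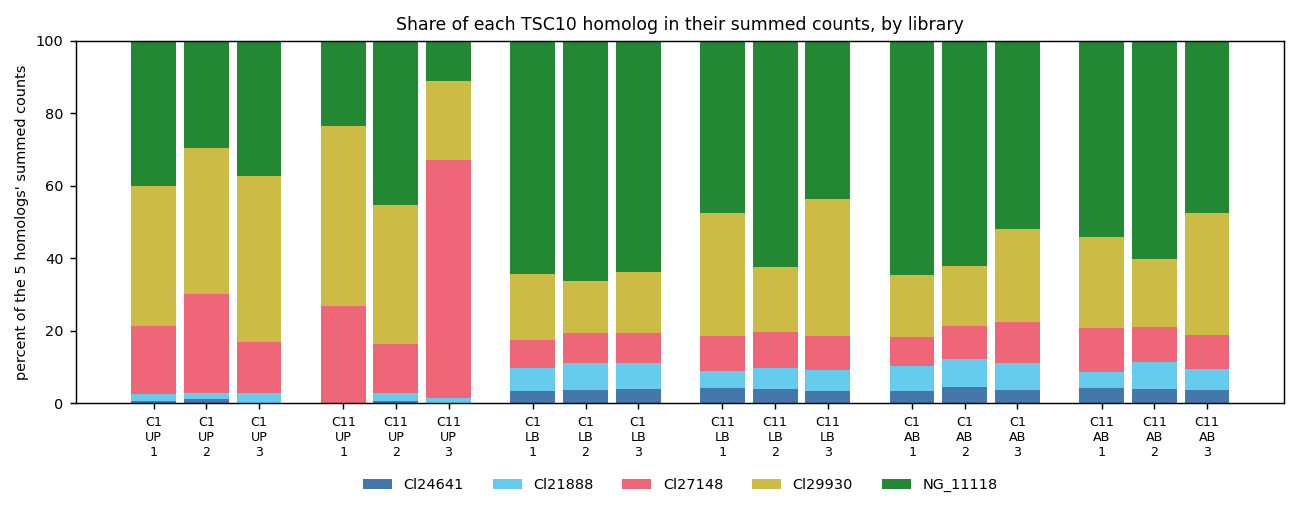
Share of each TSC10 homolog in their summed counts, in percent, with 1 bar per library. Parts of a bar are raw counts and do not rank the genes, whose lengths were not used. Cl27148 takes 65.7% in the third C11 UP library, while Cl29930 is wider in the C11 bud libraries numbered 1 and 3 than in those numbered 2.

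The genes nearest to each homolog by Pearson correlation of log2(CPM + 1) over the 18 libraries included several of the listed lipid genes, and are given as a description. NG_11118 lay closest to the WSD1 homolog Cl18958 (r = 0.994), to Cl09221 (r = 0.990), a further gene that the study called TSC10B, and to Cl33978 (r = 0.990). Cl21888 lay closest to Cl28555 (r = 0.995) and Cl10232 (r = 0.991), both listed under sphingolipid metabolism, and to the other WSD1 homolog, Cl11966 (r = 0.994). Cl24641 lay closest to Cl18869 (r = 0.994), to the CYP86B1 homolog NG_10946 (r = 0.993) and to NG_6346 (r = 0.991). In Arabidopsis CYP86B1 is a P450 that hydroxylates very long-chain acyl chains of suberin.

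Cl29930 and Cl27148 had other neighbours. Cl29930 lay closest to Cl19944 (r = 0.983), Cl17706 (r = 0.978) and Cl05123 (r = 0.972), the last of them listed under sphingolipid metabolism. Cl27148 lay closest to NG_13488 (r = 0.963), to Cl35785 (r = 0.960), which the study named FAR3, a fatty acyl reductase, and to Cl22549 (r = 0.959). The level of Cl35785 averaged 4.22 CPM in C1 UP and 14.6 CPM in C11 UP, beside 3.27 and 8.74 CPM for Cl27148 in the same groups. Like Cl27148, Cl35785 was named by the study for being lower in C1 in UP tissues, so nothing is read from these means. Only 30 genes reached an r of 0.9 with Cl27148, against 130 to 180 for the other homologs. Each homolog ranked between the fifth and the 249th neighbour of another among 27173 genes, the lowest rank being that of Cl27148 for NG_11118.

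Cl09221, named TSC10B like NG_11118, followed it closely. In UP tissues it had 1.66, 0.390 and 0.544 CPM in C1, against 1.38, 5.31 and 0.478 CPM in C11. In LB tissues it had 50.4, 58.2 and 78.8 CPM in C1, against 53.4, 141.5 and 64.6 CPM in C11. In AB tissues it had 110.3, 30.9 and 20.5 CPM in C1, against 63.2, 34.8 and 144.6 CPM in C11. Its log2 fold change of C1 over C11 was -1.48 in UP (SE 1.01, edgeR adjusted p = 0.465), -0.47 in LB (SE 0.41, edgeR adjusted p = 0.537) and -0.59 in AB (SE 0.77, edgeR adjusted p = 0.746), with overlapping clones in each. Over the 12 bud libraries its deviations correlated with those of NG_11118 at 0.99.

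The other sphingolipid metabolism genes of the module were tested in the same fits. The study listed 18 sphingolipid metabolism genes in the module, of which 13 are not among the 5 homologs. The test covered 10 of them in UP and 12 in each bud, and edgeR and DESeq2 each called 0 (unadjusted p under 0.05 with edgeR for 0 in UP, 1 in LB and 0 in AB). Over all genes edgeR called 3.94%, 4.27% and 4.55% in UP, LB and AB and DESeq2 12.6%, 12.9% and 10.9%, so that 0 calls among so few genes say little about the list. They were fitted lower in C1 for 9, 10 and 9 of these genes, with median log2 fold changes of -0.52, -0.38 and -0.38, beside -0.06, -0.01 and -0.02 for all genes. The medians of the homologs that could be tested were -0.87, -0.37 and -0.60, the named differences included. The list was chosen on these libraries, and its direction is no independent evidence.

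The fatty acid elongation genes, which make the very long chains that ceramide synthases attach, had medians above 0 in UP and LB. Of 12 tested in UP 4 were fitted lower in C1 with a median of 0.18, against 7 of 15 with a median of 0.12 in LB and 12 of 15 with a median of -0.41 in AB, and both edgeR and DESeq2 called 0 in each tissue, where 0 had an unadjusted p under 0.05, beside the same shares over all genes (unadjusted p under 0.05 for 19.8%, 20.8% and 17.9%). ECR (Cl15187), the enoyl-CoA reductase of the elongase, had bud means only 1.79 to 2.66 times its UP means. It averaged 150.6 ± 12.3 CPM in C1 UP, 333.5 ± 65.0 in C1 LB and 269.8 ± 104.3 in C1 AB (SD, n = 3 each). In C11 it averaged 126.8 ± 54.2 CPM in UP, 307.5 ± 91.9 in LB and 337.5 ± 174.2 in AB (SD, n = 3 each). KCS1 (Cl31243), a condensing enzyme of the elongase, had bud means 20.9 to 41.8 times its UP means, with 2.05 ± 1.79 CPM in C1 UP, 51.3 ± 13.5 in C1 LB and 42.8 ± 33.4 in C1 AB (SD, n = 3 each). In C11 it had 1.82 ± 3.08 CPM in UP, 69.8 ± 21.7 in LB and 76.0 ± 60.3 in AB (SD, n = 3 each).

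Set against these lists, the bud levels of the homologs stood at a median of 27.6 times the UP level in C1 and 16.3 times in C11. The 13 other sphingolipid genes had medians of 8.93 and 8.23, the 15 elongation genes 3.17 and 4.21, and the 8 surface lipid genes 20.6 and 17.4. All came from 1 module, and no difference between the lists was tested.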

How the data were processed

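RNA from UP, LB and AB tissues was sequenced as 150 bp paired-end reads from libraries made with an mRNA preparation kit. The authors aligned the reads to the C. lanceolata reference genome with Hisat2 and deposited raw whole-number counts, 1 column per library. How reads were counted, with what strand setting and with what treatment of multi-mapping reads, is not given in the sources used here, so near-identical homologs could share reads. The homologs and lists were chosen with earlier results of these data known.

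For each tissue the counts were fitted in edgeR 4.0.16 (R 4.3.3), using TMM factors, filterByExpr and the quasi-likelihood test. Benjamini-Hochberg adjustment ran over all 24167 genes in UP, 24345 in LB and 23999 in AB. A gene was called at a 2-fold change or more and an adjusted p under 0.05. Tissue folds and interactions came from a fit of 18 libraries (27174 genes). P-values measure the spread between libraries, which the study calls biological replicates. Alternatives were DESeq2 1.42.0, median-of-ratios (RLE) factors, other filters and pseudocounts, a joint fit, a replicate block and each library left out. The genes named are the 5 homologs, Cl09221, ECR, KCS1 and the 3 genes most like each homolog.

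Pairing by replicate number was checked from the deviations of libraries from their group means. Between the clones, same-numbered LB libraries had correlations of 0.257 to 0.398, all above the minimum of 0.1. In AB they were -0.191 to 0.128 and in UP -0.151 to 0.0950. Within C11, same-numbered libraries of different tissues had 0.475 to 0.739 (LB and AB), 0.458 to 0.658 (UP and LB) and 0.243 to 0.406 (UP and AB), and within C1 -0.271 to 0.245, -0.0339 to 0.423 and 0.102 to 0.488. The tissue folds were fitted without this pairing. What the numbers stand for is not stated.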

Additional observations from a re-analysis of the deposited data

How the results depend on the processing

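In none of the alternatives run was a tested homolog called. The 20 fitted values of UP over LB or AB stayed negative in all 400 refits. Most of these refits left both compared groups whole, and the module selected for this tissue pattern, so nothing is read from that count. Of 143 refits of the 12 tested clone values, 125 kept their direction and 18 reversed. With the replicate block Cl21888 in UP gave 0.30, NG_11118 in UP 0.023 and NG_11118 in LB 0.076, all reversed, and with the block no homolog was called, as without it. Leaving out 1 library gave -1.26 to 1.16 for Cl21888 in UP, -1.22 to 0.15 for Cl29930 in UP and -1.40 to 1.02 for NG_11118 in UP. It gave -0.26 to 0.41 for Cl21888 in LB and -0.30 to 0.52 for NG_11118 in LB. It gave -1.09 to 0.62 for Cl21888, -1.37 to 0.014 for Cl24641, -1.31 to 0.34 for NG_11118, -1.51 to -0.20 for Cl27148 and -2.02 to -0.17 for Cl29930 in AB.

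The counts over all genes moved far more. DESeq2 called 3659 genes in UP, 3763 in LB and 3058 in AB, the joint fit 2054 in UP and 1814 in LB, and no filter 524 in UP and 663 in LB. The replicate block gave 0 in UP, 528 in LB and 0 in AB. Leaving out 1 library gave 0 to 2683 in UP (0 without the first or the second C1 library, 2683 without the third C11 library), 7 to 1689 in LB (7 without the first or the third C1 library, 1689 without the second C11 library) and 85 to 552 in AB (85 without the first C1 library). For the interactions DESeq2 called 33 genes for UP against AB, 46 for UP against LB and 13 for LB against AB, the block 0 for each, and leaving out 1 library 0 to 4, 0 to 6 and 0 to 1. Of the 15 nearest neighbours 4 were retained with Spearman correlation and 9 with a pseudocount of 0.1. The count of 9 pairs of homolog and clone with all UP libraries below all buds was 8 with RLE factors and 9 to 10 without 1 library. Groups of 3 libraries, and the few UP counts of Cl24641 and Cl21888, limit what these data can resolve.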
